A study of Mus musculus with 44 samples.

Results

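The 8 genes described here carry phosphate across kidney cell membranes or receive the hormones that set that transport: Slc34a1, Slc34a3, Slc20a1, Slc20a2, Xpr1, Kl, Fgfr1 and Pth1r. They were chosen by name from polyadenylated RNA of mouse kidney, as 8 of the 24733 genes with any value above 0, and all 8 were tested along with the rest of the 12874 genes that reached an average of 1 TPM (transcript abundance scaled by length and library total). The 24 libraries came from 129SV mice labelled wild type (WT) or knockout (KO), the latter described by the submitters as Bmal -/-. Bmal1, gene symbol Arntl, encodes a core transcription factor of the circadian clock. All mice were 8 to 12 weeks old and fed at night only. Kidneys were taken at zeitgeber times (ZT, hours of the light cycle) 0, 4, 8, 12, 16 and 20, with 2 libraries, A and B, per genotype and time, or 12 groups. The labels do not say whether A and B are separate mice, so p-values measure the spread between these libraries, which may be technical, nor do they give sex or the cells in which Arntl was inactivated. TPM values sum to the same total in each library, so the sequencing depth is unknown, and genes can be compared in level per length.

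Filtered phosphate is taken back in the proximal tubule by sodium-phosphate cotransporters of the brush border, chiefly NaPi-IIa, encoded by Slc34a1, with NaPi-IIc, encoded by Slc34a3, as a second apical carrier. Parathyroid hormone, through its receptor PTH1R, and the bone hormone FGF23, through FGF receptors joined to the co-receptor Klotho, both withdraw these carriers from the membrane and so raise phosphate excretion. PiT-1 and PiT-2, encoded by Slc20a1 and Slc20a2, belong to a separate family of sodium-phosphate cotransporters found in most cells, and XPR1 exports phosphate. Plasma phosphate and urinary phosphate are known to vary over the day.

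The Arntl protein with its partner CLOCK binds the E-box, so the stretch upstream of each gene is shown where a level differed or a motif was found. RefSeq tables (GRCm38.p6) held such stretches, 250 bases before an annotated start, for 6 of the 8 genes, and Slc20a2 and Fgfr1 had no entry. Both strands were searched for CACGTG (the E-box), for CACGTT (an E-box variant) and for TTATGTAA (the D-box), and no matches overlapped. CACGTG occurs in 6.02% of all 32851 such windows, CACGTT in 3.85% and TTATGTAA in 0.819%. Of the windows of these 6 genes, only the upstream one of the 2 for Slc20a1 held any of them. It has 2 copies of CACGTG, shown in capitals, starting 175 and 22 bases before the start. The sequences run 5′ to 3′ on the gene's strand and leave out bases in exons of protein-coding transcripts. They are chr2:129198523-129198763 for Slc20a1 (plus strand), chr2:25234365-25234475 for Slc34a3 (minus strand) and chr9:110747146-110747395 for Pth1r (minus strand). Pth1r had further windows at chr9:110743687-110743936 and chr9:110742611-110742860, which are not shown.
Slc20a1: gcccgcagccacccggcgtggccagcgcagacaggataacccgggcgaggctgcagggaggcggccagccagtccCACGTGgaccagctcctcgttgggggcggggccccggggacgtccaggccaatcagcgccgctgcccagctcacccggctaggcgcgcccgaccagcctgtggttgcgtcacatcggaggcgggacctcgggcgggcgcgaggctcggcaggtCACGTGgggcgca
Slc34a3: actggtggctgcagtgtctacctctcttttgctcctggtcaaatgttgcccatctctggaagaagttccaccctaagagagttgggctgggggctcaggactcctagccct
Pth1r: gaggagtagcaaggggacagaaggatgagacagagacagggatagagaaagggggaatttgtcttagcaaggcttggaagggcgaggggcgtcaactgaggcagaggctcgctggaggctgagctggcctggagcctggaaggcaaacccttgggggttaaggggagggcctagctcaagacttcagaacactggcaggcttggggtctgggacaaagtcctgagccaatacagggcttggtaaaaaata
A match of these letters is not a measured binding site, and a window without one says only that these letters are not in it.

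Some libraries stood apart and bear on what follows. Arntl transcripts were still present in KO (4.19 to 6.28 TPM, against 0.295 to 12.9 in WT), so their level does not check the labels. Their daily course does separate the genotypes, with a fitted swing (highest minus lowest point of a 24-hour cosine) of 4.99 log2 units in WT against 0.20 in KO. The library labelled KO ZT4 replicate A went against its label: Cry1, a clock repressor, was at 1.03 TPM there and at 11.5 to 17.8 in the other 11 KO libraries. The library labelled KO ZT12 replicate A had 3.31 TPM summed over 4 Y-linked genes, against 48.0 to 69.1 in the other 23 libraries. A set of 4 proximal tubule genes that are known to be higher in males summed to 1200 to 2680 TPM in WT and 23.9 to 1620 in KO, the KO maximum being KO ZT4 replicate A. Without the 2 libraries just named the KO range was 66.9 to 784, and all 4 genes were lower in KO, against 10% of all genes. Of 4 genes listed as higher in females, 3 were tested and all 3 were higher in KO, against 50.9% of all genes. They summed to 6.54 to 43.3 TPM in WT and 158 to 797 in KO without those 2 libraries. The part of these genes and of the 2 libraries in the differences below was not tested. Key results are also given without KO ZT4 replicate A and KO ZT12 replicate A, called the doubted libraries below. The 8 markers of the proximal tubule, the segment that carries NaPi-IIa, summed to 1420 to 1680 TPM in WT and 1210 to 1520 in KO, 3 of them higher and 3 lower in KO, while all 13 markers of the distal convoluted and connecting tubules, collecting duct, intercalated cells and podocytes were higher, where 50.9% of all tested genes were. Of the other marker lists, the thick ascending limb had 2 genes higher and 1 lower, the endothelium 1 of 3 higher and none lower, and none of the 3 stromal or 2 immune markers tested passed. The summed level of the 13 markers was 254 to 348 TPM in WT and 289 to 514 in KO for the distal convoluted and connecting tubules, 135 to 251 and 178 to 448 for the collecting duct, 37.4 to 53.8 and 49.6 to 79.5 for intercalated cells, and 50.1 to 70.9 and 68.3 to 99.4 for podocytes. In whole kidney, fewer cells of a type and less RNA per cell cannot be told apart.

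The order of the levels was led by the brush-border carrier NaPi-IIa. In WT, Slc34a1 (mean 1474 TPM) stood above Pth1r (206.1), Kl (135.3) and Slc34a3 (38.6), and the ranges of these 4 genes did not overlap over the 12 libraries. Below them Fgfr1 (16.8), Xpr1 (15.8), Slc20a1 (15.0) and Slc20a2 (12.2) overlapped each with the next. In KO the first 4 kept this order, although the ranges of Pth1r and Kl overlapped, while Slc20a2 (19.2) moved from the eighth place to the fifth. Of the summed TPM of the 4 sodium-phosphate cotransporters, Slc34a1 took 95.7% ± 0.509 (SD, n = 12) in WT and 94.2% ± 0.817 in KO. Slc34a3 took 2.51% ± 0.421 and 3.79% ± 0.757, and Slc20a2 0.788% ± 0.110 and 1.17% ± 0.129. NaPi-IIa transcripts thus outnumbered those of the other 3 carriers together in all 24 libraries.

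**Figure D1:**
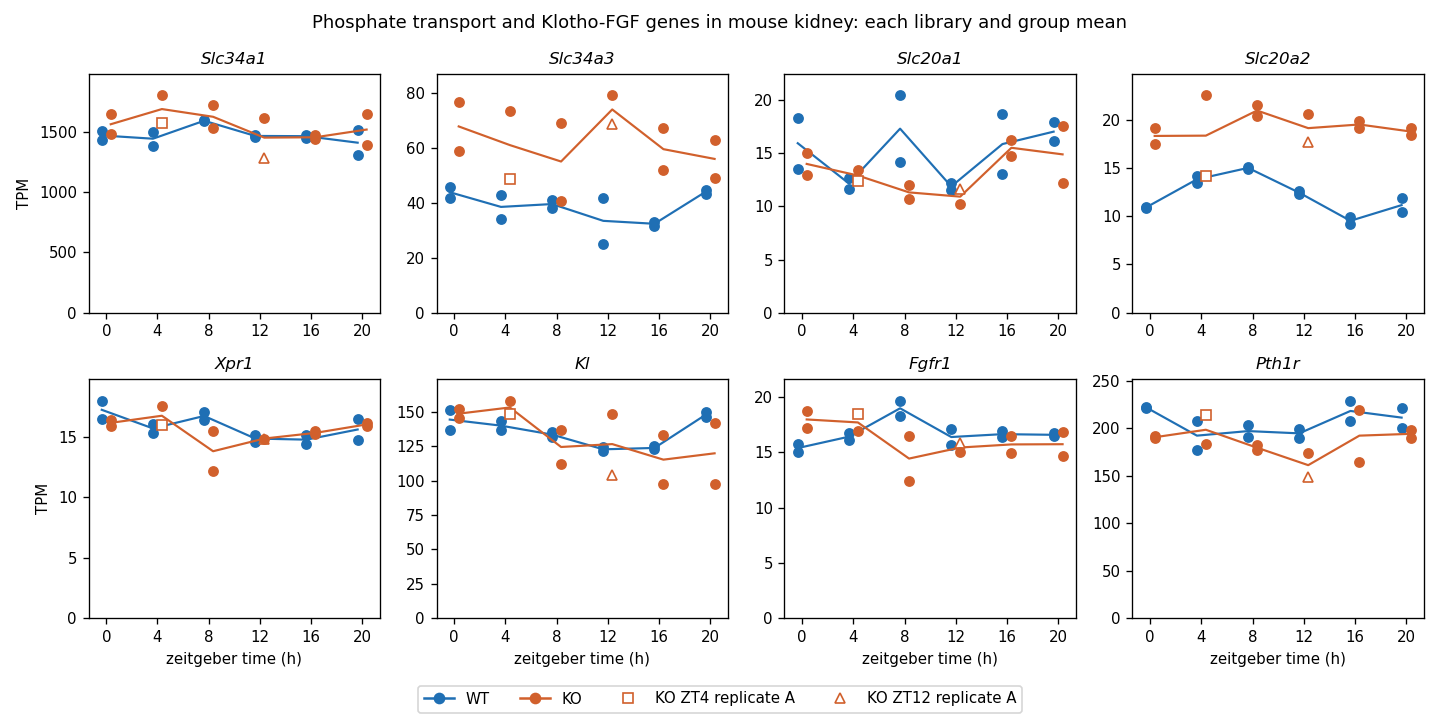
TPM of the 8 genes (vertical axes from 0) against zeitgeber time in hours, with 1 point per library, lines through the mean of the 2 libraries, and WT in blue and KO in orange. The open square is KO ZT4 replicate A and the open triangle KO ZT12 replicate A. KO means of Slc34a3 and Slc20a2 lie above WT at all 6 times, Slc20a2 in WT is highest at ZT8 (15.0 TPM) and lowest at ZT16 (9.54), and the Slc34a1 curves overlap.

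The first comparison asked which of these genes differed in level between the genotypes once time of day was accounted for. In KO kidney Slc34a3 and Slc20a2 were higher and Pth1r was lower, while Slc34a1, Slc20a1, Xpr1, Kl and Fgfr1 did not pass the test. These 3 of 8 compare with 60.9% of all 12874 genes that passed the same test (50.9% higher and 10% lower in KO), so the share of members is below the background. The test was limma on log2(TPM + 0.1) with Benjamini-Hochberg adjustment over all genes, called at an adjusted p under 0.05. The median log2 change of all genes was 0.148, and that of the 8 members was -0.04. Without KO ZT4 replicate A and KO ZT12 replicate A the members' counts were again 2 higher and 1 lower, against 61.3% of all genes (50.9% higher and 10.3% lower). Directions of small changes rest on the scaling: with median-of-ratios scaling, which brings the median of all genes to -0.002, 7 of 8 passed, 2 higher and 5 lower, against 44.1% of all genes (21.5% higher and 22.6% lower).

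NaPi-IIc (Slc34a3, ENSMUSG00000006469, GRCm38 chromosome 2, 25228898 to 25234364, minus strand) was among the 2 that rose. Its lowest, median and highest values were 25.1, 41.4 and 45.8 TPM in the 12 WT libraries, and 40.8, 65.1 and 79.1 TPM in the 12 KO libraries. The groups met only at KO ZT8 replicate A (40.8 TPM), and 11 of 12 KO libraries lay above every WT library. The share of all genes with 11 of 12 so placed was not computed, and all 12 were so placed for 1.42%. The log2 change was 0.68 (SE 0.11, adjusted p 6.41e-05 in limma), 1.60-fold, with KO higher at all 6 times. It was 0.53 (adjusted p 0.000514) under median-of-ratios scaling and 0.70 (adjusted p 0.000102) without both doubted libraries. The SD over KO libraries was 12.4 TPM, against 6.31 in WT. The widest gap between the 2 KO libraries of a time was at ZT8, with 40.8 and 69.2 TPM.

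PiT-2 (Slc20a2, ENSMUSG00000037656, chromosome 8, 22476788 to 22569612, plus strand) rose by a like amount. Its lowest, median and highest values were 9.195, 12.1 and 15.2 TPM in WT, and 14.2, 19.2 and 22.6 TPM in KO. KO ZT4 replicate A (14.2 TPM) was the only KO library within the WT range, and beside it KO ZT4 replicate B held 22.6, the highest of all. The log2 change was 0.66 (SE 0.07, adjusted p 6.17e-07 in limma), 1.58-fold, with KO higher at all 6 times. It was 0.51 (adjusted p 5.93e-06) under median-of-ratios scaling and 0.74 (adjusted p 1.62e-09) without both libraries. Without KO ZT4 replicate A the other 11 KO libraries, at 17.6 TPM or more, all lay above the 12 WT libraries, which 8.34% of all genes did.

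The receptor for parathyroid hormone, Pth1r (ENSMUSG00000032492, chromosome 9, 110722085 to 110747145, minus strand), fell slightly. WT libraries held 177.4, 205.6 and 228.9 TPM (lowest, median and highest), and KO libraries 148.9, 186.4 and 219.8. The groups overlapped widely, with 3 KO libraries below every WT library, and KO ZT12 replicate A was the lowest. Pth1r fell by 0.15 on the log2 scale (SE 0.05, adjusted p 0.0132 in limma), with KO lower at 5 of 6 times. The adjusted p ranged from 0.00282 to 0.0271 over the 24 fits that each left out 1 library. Under median-of-ratios scaling the fall was larger, with a log2 change of -0.30 (adjusted p 0.000511).

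The main brush-border carrier did not pass. Slc34a1 (ENSMUSG00000021490, chromosome 13, 55398187 to 55415592, plus strand) held 1307, 1476 and 1596 TPM in WT and 1287, 1552 and 1803 in KO (lowest, median and highest). The KO range enclosed the WT range. Its log2 change was 0.07 (SE 0.05, 95% interval -0.03 to 0.16, adjusted p 0.195 in limma), and -0.08 (adjusted p 0.213) under median-of-ratios scaling, so its direction turns with the scaling. The upper bound of that interval lies below the lower bounds for Slc34a3 (0.44) and Slc20a2 (0.52).

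PiT-1 (Slc20a1, ENSMUSG00000027397, chromosome 2, 129198764 to 129211616, plus strand), the gene whose upstream stretch carries 2 E-box matches, held 11.6, 13.9 and 20.5 TPM in WT and 10.2, 12.7 and 17.6 in KO. Its log2 change was -0.17 (SE 0.09, 95% interval -0.35 to 0.01, adjusted p 0.0951 in limma), with KO lower at 5 of 6 times. It passed without WT ZT16 replicate B (-0.21, adjusted p 0.0370), with mitochondrial genes left out of the scaling (-0.24, adjusted p 0.0454), and under median-of-ratios scaling (-0.32, adjusted p 0.00581). The annotation places Gm4430, on the opposite strand, over the first exon of Slc20a1, and how strands were counted is not given in the sources used here.

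The exporter and the Klotho-FGF receptor genes did not pass either. The phosphate exporter Xpr1 (ENSMUSG00000026469, chromosome 1, 155275701 to 155417415, minus strand) held 14.4, 15.7 and 18.0 TPM in WT and 12.2, 15.7 and 17.6 in KO, a log2 change of -0.03 (95% interval -0.12 to 0.06, adjusted p 0.551). Klotho (Kl, ENSMUSG00000058488, chromosome 5, 150952607 to 150993817, plus strand) held 121.4, 135.8 and 151.6 TPM in WT and 97.4, 139.4 and 157.8 in KO. The Kl log2 change was -0.06 (95% interval -0.21 to 0.09, adjusted p 0.478), and its SD was 22.2 TPM in KO against 10.7 in WT. Of the 12 KO libraries, 4 lay below every WT library and 2 above. Fgfr1 (ENSMUSG00000031565, chromosome 8, 25513654 to 25575718, plus strand), an FGF receptor that pairs with Klotho, held 15.0, 16.6 and 19.7 TPM in WT and 12.4, 16.5 and 18.7 in KO, a log2 change of -0.05 (95% interval -0.18 to 0.07, adjusted p 0.444). Under median-of-ratios scaling all 3 were called lower in KO, at -0.18 for Xpr1, -0.21 for Kl and -0.20 for Fgfr1 (adjusted p 0.00221, 0.0274 and 0.00862 in limma).

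**Figure D2:**
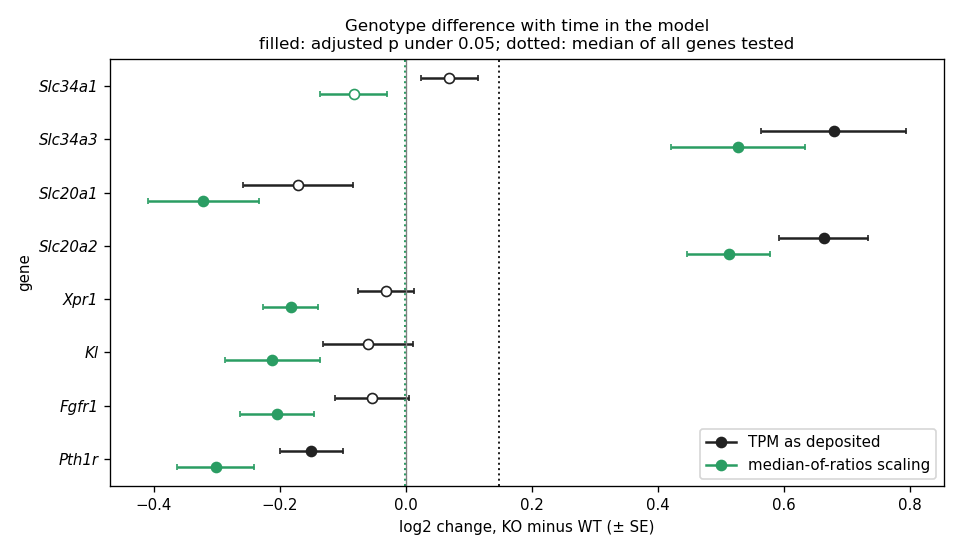
Log2 change in level, KO minus WT, with its standard error (horizontal axis) for the 8 genes, in black for TPM as deposited and in green after median-of-ratios scaling; filled points passed an adjusted p of 0.05 and dotted lines mark the median of all genes. Slc34a3 (0.68 and 0.53) and Slc20a2 (0.66 and 0.51) lie to the right under both scalings, and Pth1r (-0.15 and -0.30) to the left, while Slc34a1 lies on both sides of 0 (0.07 and -0.08).

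The deposited file gives single transcripts, whose split within a gene is an estimate of the quantifier. Of 42 transcripts of the 8 genes in the file, 40 had a value above 0 and 23 reached a mean of 1 TPM. Of these 8 differed between genotypes, 6 higher and 2 lower, against 38.8% of 26725 transcripts tested (31.7% higher and 7.08% lower). For Slc34a3 the coding transcript Slc34a3-201 held 48.7% of the gene's TPM in WT and 49.2% in KO, and rose by 0.69 log2 units (adjusted p 1.9e-05). The rest of Slc34a3 was short transcripts annotated as processed, 4 of which also rose, the most abundant being Slc34a3-206 (0.72, adjusted p 0.00112). Slc20a2, Slc34a1 and Kl were each carried by a single transcript in the file, of which Slc20a2-201 rose by 0.66 log2 units. The coding transcript Slc20a1-201 fell by 0.28 on the log2 scale (SE 0.10, adjusted p 0.0273), from 7.43 ± 1.59 to 6.103 ± 1.298 TPM (SD, n = 12), although the gene sum did not pass. It held 49.4% of the gene's TPM in WT, and the 3 retained-intron or processed forms tested did not pass. Pth1r-201 fell by 0.20 on the log2 scale (SE 0.05, adjusted p 0.00652), while the minor Pth1r-202 changed by 0.27 (SE 0.16, adjusted p 0.178). None of the 6 Fgfr1 transcripts tested, nor Xpr1-201, passed.

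The second comparison asked which of the genes followed a 24-hour rhythm in each genotype, by the F statistic of a fitted cosine in limma. Slc20a2 was the only member rhythmic in WT, 1 of 8 against 13.7% of all genes, and no member was rhythmic in KO, against 3.64% of all genes. In KO 1 member, Kl, had an unadjusted p under 0.05. The 2 genotypes were also compared directly, and the test of the difference passed for no member, against 0.629% of all genes, with Slc20a2 and Fgfr1 at an unadjusted p under 0.05. Without the 2 doubted libraries Slc20a2 was again the 1 member rhythmic in WT, against 19.9% of all genes, and the other counts were again 0.

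In WT, Slc20a2 held 10.96 and 10.85 TPM at ZT0, 14.2 and 13.5 at ZT4, 14.9 and 15.2 at ZT8, 12.3 and 12.6 at ZT12, 9.886 and 9.195 at ZT16, and 11.9 and 10.5 at ZT20 (A and B). Both libraries at ZT4 and ZT8 lay above all libraries at the other times, and both at ZT16 lay below. The fitted swing was 0.56 log2 units (SE 0.12), with a peak at 6.63 h (SE 0.82, adjusted p 0.0103). When the 6 times were fitted as levels without a cosine, the adjusted p was 0.0778. In KO the fitted swing was 0.13 log2 units (SE 0.12, adjusted p 0.761). For the genotype difference in rhythm the adjusted p was 0.259 (0.0170 unadjusted), so a flatter curve in KO was not established. At ZT16 the KO mean was 19.6 TPM against 9.54 in WT, and at ZT8 21.0 against 15.0.

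Kl in WT held 151.6 and 137.0 TPM at ZT0 and 149.5 and 146.1 at ZT20, and 121.4 and 124.1 at ZT12 and 124.9 and 122.6 at ZT16. All 4 libraries around the start of the light phase thus lay above all 4 from ZT12 and ZT16. The fitted Kl swing in WT was 0.26 log2 units (SE 0.13), peaking at 0.24 h, and did not pass (adjusted p 0.353). A fit of the 12 WT libraries alone, which found 22.1% of all genes rhythmic, did call Kl (adjusted p 0.0167). In KO the Kl value was 0.41 log2 units (SE 0.13), peaking at 3.0 h (adjusted p 0.156, 0.0215 unadjusted), with replicates at 141.9 and 97.7 TPM at ZT20.

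Neither Slc34a1 nor Slc34a3 had a called rhythm. Slc34a1 had a fitted swing of 0.11 log2 units (SE 0.09, adjusted p 0.622) in WT and 0.21 (SE 0.09, adjusted p 0.271) in KO. Slc34a3 had 0.43 (SE 0.22, adjusted p 0.367) and 0.07 (SE 0.22, adjusted p 0.981). Slc20a1 had 0.26 (SE 0.19) and 0.46 (SE 0.19), with fitted peaks at 20.4 h in both genotypes, and neither passed (adjusted p 0.618 and 0.310). For Fgfr1 the fitted peaks lay at 9.495 h in WT and 0.33 h in KO, with swings of 0.16 and 0.25 log2 units, and the test of the difference gave an adjusted p of 0.344 (0.0400 unadjusted). Xpr1 and Pth1r had values between 0.17 and 0.22 log2 units in each genotype, with adjusted p of 0.279 or more. The median over all genes was 0.248 log2 units in WT and 0.215 in KO.

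**Figure D3:**
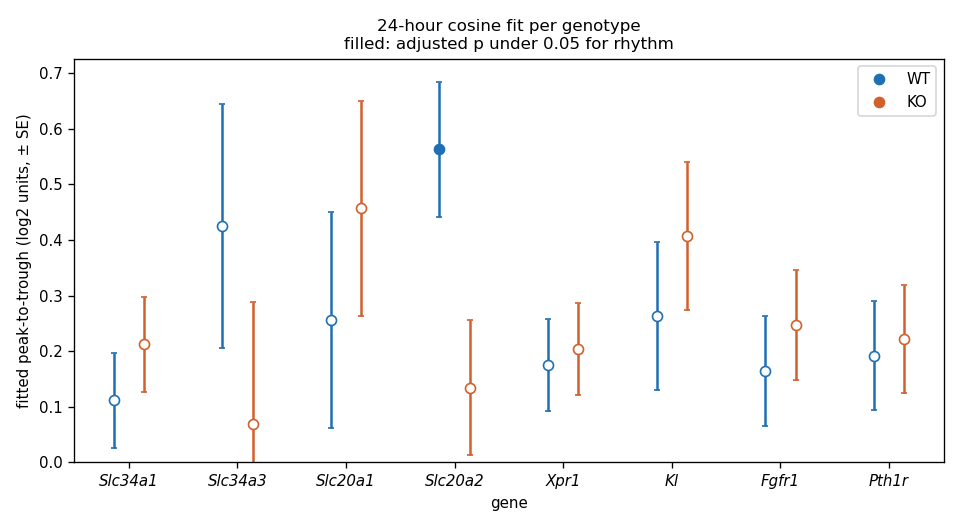
Fitted peak-to-trough swing in log2 units with its standard error (vertical axis) for each of the 8 genes, WT in blue and KO in orange; filled points passed an adjusted p of 0.05 for rhythm. Slc20a2 in WT (0.56) is the only filled point, and its KO value is 0.13.

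For 7 of the 8 members, the genes most like each in pattern are given, taken as the 2 with the highest Pearson correlation of log2 values over the 24 libraries, which share the genotype difference and the scaling of each library. These are descriptions. Slc34a3 was closest to Slc5a2 (r = 0.951), which encodes the glucose carrier SGLT2 of the early proximal tubule, and to Ugt2b34 (0.940). Slc5a2 itself was higher in KO by 0.45 log2 units (adjusted p 6.83e-05). Slc20a2 was closest to Slc35f2 (0.959) and Washc1 (0.956), and Pth1r to Dhx29 (0.884) and Ptms (0.873). Kl was closest to Oxct1 (0.810), an enzyme of ketone body use, and to Mipep (0.793). Xpr1 was closest to Ipo8 (0.836) and Nckap1 (0.833), Fgfr1 to Nfatc1 (0.808) and Epas1 (0.778), and Slc20a1 to Paqr9 (0.689) and Aars (0.682). Slc34a3 and Slc20a2, both higher in KO, correlated at 0.717 over the 24 libraries but at 0.0993 within the 12 WT and 0.182 within the 12 KO libraries.

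Other genes of phosphate handling were examined as 9 lists, 55 genes in all, of which 49 were tested. In KO 25 were higher and 4 lower, against 50.9% and 10% of all genes, and 20 did not pass. Their median log2 change was 0.128, against 0.148 for all genes. Under median-of-ratios scaling 9 were higher and 10 lower, against 21.5% and 22.6% of all genes. In WT 4 of 49 were rhythmic, in KO 1, and 1 differed in rhythm, against 13.7%, 3.64% and 0.629% of all genes.

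Of the scaffolds that hold NaPi-IIa at the brush border and their partners, all 5 tested genes were called. In KO 3 were higher and 2 lower, against 50.9% and 10% of all genes. NHERF1 (Slc9a3r1), the scaffold that anchors NaPi-IIa and links it to the parathyroid hormone receptor, held 126.1, 142.5 and 166.2 TPM in WT and 93.4, 119.1 and 136.9 in KO, and 9 of 12 KO libraries lay below every WT library. The share of all genes with 9 of 12 so placed was not computed. Slc9a3r1 fell by 0.28 on the log2 scale (SE 0.06, adjusted p 0.000401). NHERF3 (Pdzk1) held 313.7, 389.2 and 442.0 TPM in WT and 293.8, 327.0 and 390.9 in KO, and fell by 0.19 (SE 0.05, adjusted p 0.00323). The Pdzk1 binding partner Pdzk1ip1 rose by 0.46 log2 units (adjusted p 3.91e-07), with all 12 KO libraries above all 12 WT libraries, as for 1.42% of all genes. NHERF2 (Slc9a3r2) rose by 0.28 (adjusted p 0.00132) and Ezr, the membrane linker ezrin, by 0.14 (adjusted p 0.00128). Under median-of-ratios scaling 1 was higher (Pdzk1ip1) and 2 were lower (Slc9a3r1 and Pdzk1), against 21.5% and 22.6% of all genes. There Slc9a3r2 did not pass and Ezr turned to -0.01, so the rise of these 2 rests on the scaling.

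Of these 5 genes, 3 were rhythmic in WT and 1 in KO, against 13.7% and 3.64% of all genes. Slc9a3r1 peaked at 14.2 h in WT (0.28 log2 units, SE 0.07, adjusted p 0.0348) and at 1.65 h in KO (0.33, SE 0.07, adjusted p 0.0329). Its difference in rhythm passed (adjusted p 0.0152), the only one in the 9 lists. Pdzk1 had 0.40 log2 units (SE 0.09) in WT with a peak at 19.6 h (adjusted p 0.0103), and 0.27 in KO (adjusted p 0.152). Slc9a3r2 had 0.55 in WT (SE 0.14, adjusted p 0.0333) and 0.54 in KO (SE 0.14, adjusted p 0.0708), peaking at 18.6 and 17.2 h. With the times as 6 levels, none of the Slc9a3r1 tests nor the Pdzk1 rhythm passed. Without each library in turn, Slc9a3r1 was called rhythmic in WT in 18 of 24 fits and in KO in 19.

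Among other FGF receptors and their adaptors, 6 of 8 tested genes were higher in KO and none lower, against 50.9% and 10% of all genes. Under median-of-ratios scaling 1 was higher (Fgfr2) and 2 were lower (Fgfr4 and Sos1), against 21.5% and 22.6%. Fgfr2 held 7.62, 9.57 and 12.3 TPM in WT and 11.8, 17.1 and 19.95 in KO, where KO ZT4 replicate A was again the lowest and the only one within the WT range. The other 11 KO libraries all lay above the 12 WT libraries, as for 8.34% of all genes. Fgfr2 rose by 0.77 log2 units (SE 0.08, adjusted p 3.91e-07), or by 0.83 without both doubted libraries. Fgfr3 rose by 0.20 (adjusted p 0.0118) and the docking adaptor Frs3 by 0.29 (adjusted p 0.00209), and neither passed under median-of-ratios scaling. The log2 change of Fgfr4 was -0.04 (adjusted p 0.546) as deposited and -0.19 (adjusted p 0.00757) under that scaling. Of the 8 tested response genes of the ERK kinases that FGF receptors activate, 0 were higher and 1 was lower, against 50.9% and 10% of all genes. The feedback inhibitor Spry4 fell by 0.49 on the log2 scale (SE 0.10, adjusted p 0.00028), from 1.74 ± 0.230 to 1.22 ± 0.233 TPM (SD, n = 12). Dusp6, the phosphatase often read as a sign of FGF signalling, did not pass (-0.002, SE 0.13, adjusted p 0.989). Under median-of-ratios scaling 0 of the 8 were higher and 2 were lower (Spry4 and Spred1), against 21.5% and 22.6% of all genes.

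Of 10 genes of parathyroid hormone receptor signalling, 9 were higher in KO and none lower, against 50.9% and 10% of all genes. Adenylyl cyclase 6 (Adcy6) was higher by 0.57 log2 units (SE 0.07, adjusted p 2.28e-06), the regulatory subunit of protein kinase A Prkar1a by 0.28 (adjusted p 2.29e-06), and Arrb1, an arrestin that takes receptors from the membrane, by 0.43 (adjusted p 2.4e-05). These 3 were the ones still called under median-of-ratios scaling, against 21.5% of all genes higher. For Adcy6, KO ZT4 replicate A (18.4 TPM) was the only KO library within the WT range (15.3 to 20.2). The other 11 KO libraries lay above all 12 WT libraries, as for 8.34% of all genes.

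Of the vitamin D genes, the receptor Vdr rose by 0.23 log2 units (adjusted p 0.00461, not passed under median-of-ratios scaling) and its partner Rxra fell by 0.18 (SE 0.04, adjusted p 0.00102). Cyp27b1, which makes active vitamin D and is repressed by FGF23, held 1.23, 2.43 and 7.30 TPM in WT and 1.31, 2.52 and 5.64 in KO, a log2 change of -0.13 (SE 0.29, adjusted p 0.726). Cyp24a1, which breaks active vitamin D down, did not pass the test of level (log2 change 0.42, SE 0.51, adjusted p 0.494) but had the largest daily swings of the lists. In WT it held 39.6 and 39.3 TPM at ZT4, 60.5 and 45.2 at ZT8, and 6.71 and 6.07 at ZT16. In KO it held 22.1 and 7.56 at ZT4, 11.3 and 26.1 at ZT8, and 51.9 and 60.5 at ZT16. The KO replicates lay furthest apart in TPM at ZT12 (6.675 and 36.87) and ZT20 (75.91, the highest KO library, and 28.53). At those times WT held 12.59 and 17.77, and 9.075 and 11.25. The fitted Cyp24a1 peaks lay at 7.44 h in WT (3.09 log2 units, SE 0.89, adjusted p 0.0607) and 15.9 h in KO (2.41, SE 0.89, adjusted p 0.225), and the difference in rhythm did not pass (adjusted p 0.139). Without both doubted libraries all 3 tests passed, with adjusted p of 0.0184, 0.0449 and 0.0477.

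Of the 3 proteases that shed Klotho from the cell surface, Bace1 rose by 0.31 log2 units (adjusted p 0.000538) and Adam17 by 0.25 (adjusted p 0.00376), and Adam17 was rhythmic in WT (adjusted p 0.0422). Adam10 did not pass (0.07, adjusted p 0.173). Under median-of-ratios scaling Bace1 was still called (0.16, adjusted p 0.0188) and Adam17 was not (0.10, adjusted p 0.198). Of the kinases that make inositol pyrophosphates, the signals that XPR1 senses, Ip6k2 was higher by 0.53 log2 units (SE 0.07, adjusted p 8.12e-06). The XPR1 partner Kidins220 was higher by 0.25 (adjusted p 0.000126). Both were called under median-of-ratios scaling too. Alpl, the phosphatase that breaks down pyrophosphate, was higher by 0.26 log2 units (adjusted p 0.00446) as deposited but did not pass under median-of-ratios scaling.

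The largest change of the lists was in Slc34a2, which encodes NaPi-IIb, the phosphate carrier of intestine and lung. It held 0.401, 0.660 and 0.871 TPM in WT and 0.962, 4.11 and 5.58 in KO. All 12 KO libraries lay above all 12 WT libraries, as for 1.42% of all genes, with KO ZT4 replicate A (0.962 TPM) the lowest of them and the next at 2.95. The log2 change was 2.35 (SE 0.20, adjusted p 2.3e-07 in limma) and 2.58 without both doubted libraries. Every WT library lay below the filter of 1 TPM, so Slc34a2 was among the tested genes only through its level in KO. Its p-value and its lack of overlap are therefore descriptions and no separate support. At 3.995 TPM on average in KO it stayed far below Slc34a1 (1551) and Slc34a3 (62.2). The hormone FGF23 is made in bone, and Fgf23 averaged 0.0239 TPM in WT and 0.0260 in KO, below the filter, while Pth was listed nowhere above 0.

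**Figure D4:**
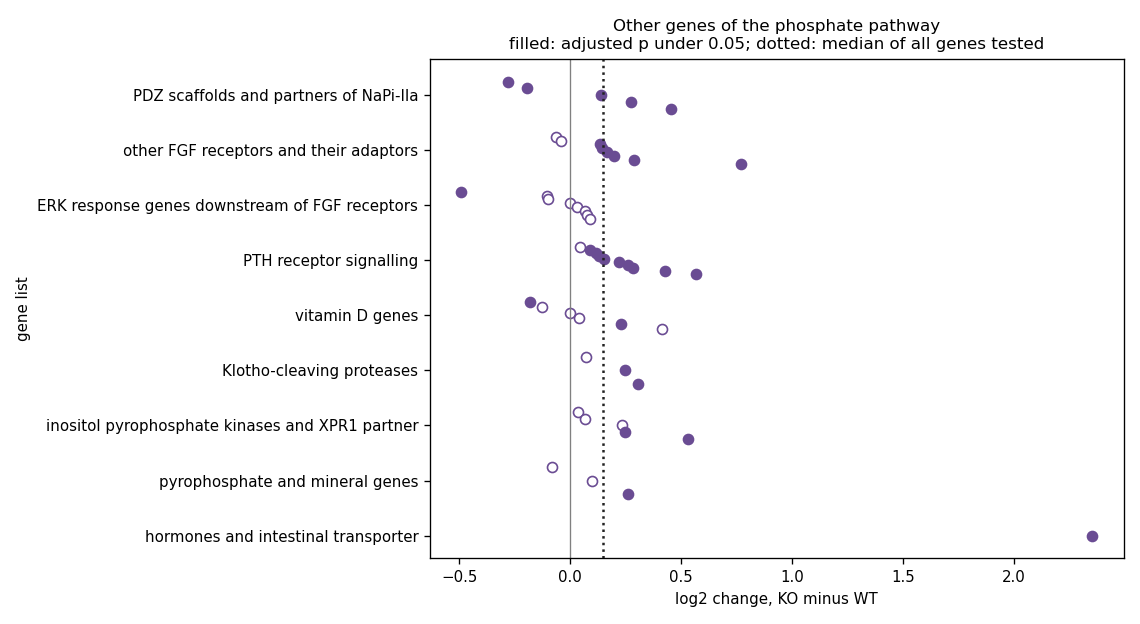
Log2 change in level, KO minus WT (horizontal axis), of the 49 tested genes of the 9 lists, with 1 point per gene; filled points passed an adjusted p of 0.05, the solid line marks 0 and the dotted line the median of all genes (0.148). Slc34a2 lies alone at 2.35. The 10 genes of parathyroid hormone receptor signalling all lie to the right of 0, as do 9810 of all 12874 genes, and 6 lie to the right of the dotted line.

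**Figure D5:**
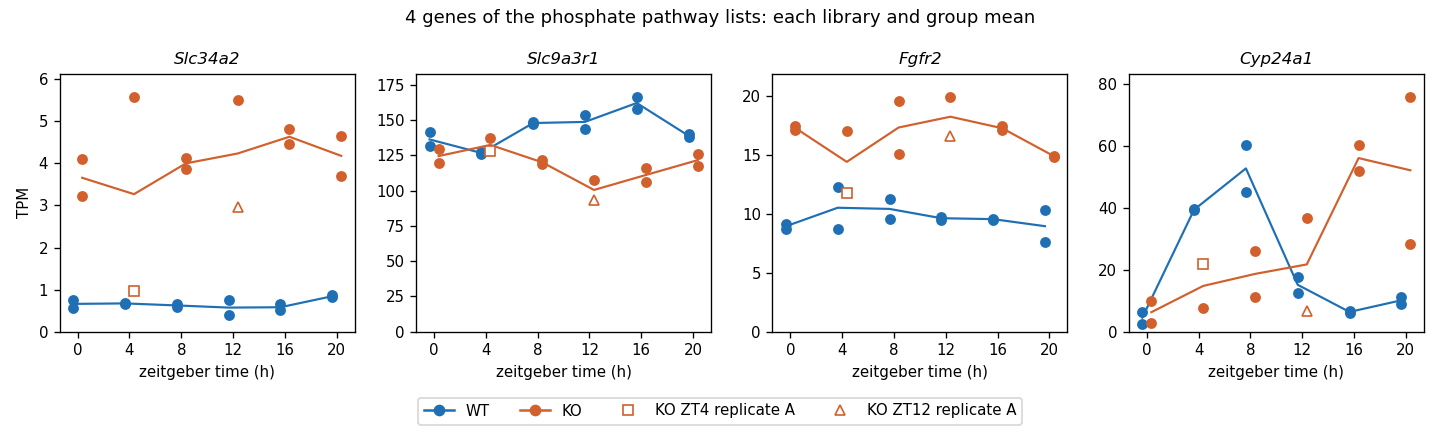
TPM of 4 genes of the lists against zeitgeber time in hours, drawn as for the 8 genes, with the open square for KO ZT4 replicate A and the open triangle for KO ZT12 replicate A. Slc34a2 and Fgfr2 are higher in KO at all 6 times, Slc9a3r1 is highest at ZT16 in WT (162.0 TPM) and at ZT4 in KO (132.3), and Cyp24a1 is highest at ZT8 in WT (52.8) and at ZT16 in KO (56.2).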

How the data were processed

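Polyadenylated kidney RNA was measured in 24 libraries. The authors deposited TPM per transcript, made with kallisto 0.42.4 per the submitters' processing notes; the column headers call WT SV129, which was read as WT. Each column sums to between 999999 and 1000001, so depth is unknown and no counting interval was computed. Transcripts were summed to genes through GENCODE M21 (GRCm38): 86119 of 88198 matched, and the others held 1.35% to 2.24% of TPM. Log2(TPM + 0.1) of the 12874 genes averaging 1 TPM or more over the libraries was tested with limma 3.58.1 (trend and robust eBayes) in R 4.3.3, two-sided or by F statistics, with Benjamini-Hochberg adjustment over all genes. This scale understates changes of low genes. The genotype coefficient had time as a 6-level factor, and rhythm was a 24-hour cosine per genotype with 1 spread per gene. Code was tested on simulated data.

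The members and lists were chosen with earlier results of these data known. Every member is named; of the lists, up to 3 called genes per list and test with the smallest adjusted p, and Cyp27b1, Cyp24a1, Slc9a3r1, Pdzk1, Fgfr4, Fgf23 and Pth, are named. Dusp6, Adam10, Sos1, Spred1 and Slc5a2 were named after their values were seen. Promoter sequences are from RefSeq. The 20 4C libraries were not used here. The likeness result for Slc34a1 is not reported here.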

Additional observations from a re-analysis of the deposited data

Results flagged for a closer look

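The scaffold gene Slc9a3r1 (NHERF1) differed in daily rhythm between the genotypes by the test of the difference itself (adjusted p 0.0152 in limma, over 12 WT and 12 KO libraries). In WT it held 126.1 and 127.0 TPM at ZT4 and 166.2 and 157.8 at ZT16. In KO it held 127.7 and 136.9 TPM at ZT4, and 93.4 and 107.3 at ZT12. The KO libraries lay below the WT libraries without overlap at the 5 times other than ZT4. The share of all genes so placed was not computed. A lower level in KO (log2 change -0.28) can give such a placing by itself, so it is no test of the difference in rhythm. Leaving out 1 library at a time gave adjusted p-values for the difference of 0.00699 to 0.0446, while time as a 6-level factor gave 0.0881. KO ZT12 replicate A held the lowest value, and without it and KO ZT4 replicate A the adjusted p was 0.0209.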

How the results depend on the processing

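Without each library in turn, 3 to 4 members differed in level, 1 was rhythmic in WT, 0 in KO and 0 differed in rhythm. The level calls of Slc34a3, Slc20a2 and Pth1r held in all of these fits and alternatives. Median-of-ratios scaling called 7 members, 2 higher and 5 lower, and turned Slc34a1 to -0.0831. Without 1 library Xpr1 ranged from -0.0471 to 0.00315, turning without KO ZT8 replicate A, and Cyp27b1 from -0.245 to 0.0306, turning without KO ZT12 replicate B. Members rhythmic in WT numbered 2 with each genotype fitted alone and 0 with time as a 6-level factor, against 2843 and 576 of all 12874 genes. At least 5 TPM on average left 5 called transcripts of 9 tested, and leaving out 1 library gave 7 to 9. The shares of all transcripts in these settings were not computed.

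Of the 49 list genes, 29 differed in level, 28 to 29 without 1 library and 19 under median-of-ratios scaling (9 higher, 10 lower). Of all genes, 60.9% differed in level as deposited and 44.1% under median-of-ratios scaling. List genes rhythmic in WT numbered 4, but 1 with no filter, 12 with each genotype alone, 1 with the 6-level factor, 9 without both doubted libraries and 1 to 7 without 1 library. The count over all 12874 genes moved as well. It was 1761, but 2843 with each genotype alone, 576 with the 6-level factor and 2559 without both doubted libraries. With no filter it was 1520 of 24733. List genes rhythmic in KO numbered 1, but 0 with no filter, 5 under median-of-ratios scaling, 2 without mitochondrial genes, 0 with each genotype alone or the 6-level factor, and 0 to 3 without 1 library. Over all 12874 genes it was 468, 590 under median-of-ratios scaling, 12 with each genotype alone and 28 with the 6-level factor. With no filter it was 295 of 24733, and without mitochondrial genes 456 of 12861. List genes differing in rhythm numbered 1, 0 with the 6-level factor and 2 without both doubted libraries, where all genes gave 81, 23 and 85 of 12874. The causes were not tested.

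With the replicate letter as a block, 3 members differed in level, 1 was rhythmic in WT and 0 in KO, 0 differed in rhythm, 29 list genes and 8 transcripts differed in level, and it changed none of these counts. Deviations of the WT and KO libraries of the same letter from their group means correlated between -0.089 and 0.15 over the 6 times. This bears only on pairing across genotypes and cannot show whether A and B differ within a genotype. In WT, Slc20a1 was higher in A than in B at every time (18.35 and 13.55 TPM at ZT0), which was not so in KO.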
